A study of Mus musculus with 8 samples.

Results

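The 8 genes of the G1 phase described here are the D-type cyclins Ccnd1, Ccnd2 and Ccnd3, the kinases Cdk4 and Cdk6, and the inhibitors Cdkn1a, Cdkn1b and Cdkn2c, out of 21751 protein-coding genes. Their chromatin loops were taken from 4 lists of H3K27ac HiChIP interactions, where a loop joins 5 kb bins whose contacts exceed what the loop caller models for their distance and coverage. A loop was counted for a gene when 1 of its bins held the gene's canonical transcription start site (GENCODE M39, build GRCm39), the start-site bin, and the other bin is called the partner bin. By that rule 60 of 80489 loops in p30 UT belonged to the 8 genes, and 56 of 94609 did in p30 LPS. In p42 UT 73 of 158233 did, and 49 of 78591 in p42 LPS. Wherever 4 values follow each other, they stand in this order of lists, p30 without and with LPS and then p42 without and with LPS. They made up 99 different bin pairs at 7 of the 8 genes, and Cdk4 had none.

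In HiChIP, fixed and MNase-digested chromatin was pulled down with an antibody and DNA ends held near each other were then ligated. The antibody was against H3K27ac, a histone acetylation found at promoters and enhancers in use. The cells were HPC-7, a mouse haematopoietic progenitor line kept in stem cell factor that has very little CEBPA of its own. They carried either p42, the full-length isoform of the myeloid transcription factor CEBPA, or p30, the shorter isoform that lacks the N-terminal part, from a retroviral transgene. Cells were left untreated (UT) or given LPS, a bacterial cell wall component, at 100 ng/mL for 2 h. The methods use the names p30 and p42 HPC-7 for lines whose isoform is fused to ERT2, which 4-OHT moves into the nucleus, and describe constitutive lines separately. The HiChIP labels name the line and the isoform and mention neither ERT2 nor 4-OHT. Each of the 4 groups had 2 libraries, but 1 list per group with both libraries pooled was deposited. Differences between groups therefore have no replicate spread and no p-value, and the 95% intervals given here are exact binomial ones that cover counting error only. Share of cells with a contact and contacts per cell cannot be told apart in such bulk data.

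D-type cyclins are made in response to growth signals and activate Cdk4 and Cdk6. These kinases phosphorylate the retinoblastoma protein Rb1, which releases E2F factors and lets a cell enter S phase. Cdkn1a (p21) and Cdkn1b (p27) belong to the Cip/Kip inhibitors, which bind cyclin and kinase complexes, and Cdkn2c (p18) belongs to the INK4 inhibitors, which bind Cdk4 and Cdk6 directly. In blood stem and progenitor cells these genes are known for setting the balance of quiescence and division, and CEBPA is known for coupling growth arrest to myeloid differentiation.

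The lists differed in length more than in depth. The caller modelled 17976716, 14503330, 18999991 and 15831583 contacts in the 4 lists. Numbers of loops were therefore compared in lists of equal length, for which each list was limited to its 78591 best loops by q-value, reaching q-values of 0.00897, 0.00379, 6.98e-05 and 0.01. All 10 blood progenitor markers examined had a start-site loop in each list, among them Kit, Gata2 and Runx1. None of 3 T cell markers had one in any list, while 2 of 4 B cell, 1 of 4 macrophage, 1 of 4 erythroid and 1 of 5 fibroblast, epithelium, liver, nerve and muscle markers had one in at least 1 list.

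The 250 bases before the start site are shown for Cdkn1a, which had the most loops of the 8 genes, and for Ccnd2, whose partners lay upstream alone. They were read from the GRCm39 genome on the strand of the gene, at chr17:29312488-29312737 (+) for Cdkn1a and chr6:127128024-127128273 (-) for Ccnd2. Capitals mark the GC box GGGCGG on either strand.
Cdkn1a: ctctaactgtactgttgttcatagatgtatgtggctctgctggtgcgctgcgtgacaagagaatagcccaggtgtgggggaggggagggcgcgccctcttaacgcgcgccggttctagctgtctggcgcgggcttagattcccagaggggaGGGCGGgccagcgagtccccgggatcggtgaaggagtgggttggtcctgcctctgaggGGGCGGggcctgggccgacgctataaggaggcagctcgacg
Ccnd2: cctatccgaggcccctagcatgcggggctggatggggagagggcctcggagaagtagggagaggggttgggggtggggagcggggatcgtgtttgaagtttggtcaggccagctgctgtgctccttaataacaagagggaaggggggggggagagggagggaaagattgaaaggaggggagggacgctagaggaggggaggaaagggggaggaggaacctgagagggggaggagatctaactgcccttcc
The window of Cdkn1a held 2 GC boxes and that of Ccnd2 none. Over all 8 genes, 6 windows held a GC box, against 36.3% of the 21738 windows of all protein-coding genes that could be read. The E2F motif (TTTCCCGC or TTTGGCGC) was found in the window of Ccnd3 alone, against 1.62% of all windows. The AP-1 motif TGANTCA, the CEBP motif TTGCGCAA and the composite CEBP-ATF motif TGATGCAA were each in none of the 8 windows, against 6.18%, 0.166% and 0.888% of all windows. The window of Cdkn1a overlaps an exon of the noncoding gene Dino, whose start site shares the bin.

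The partner bins hold the distal ends of the loops, and short stretches of them are shown because the study examined AP-1 and CEBPA at enhancers. Each is 61 bases on the plus strand of GRCm39 around a match to the AP-1 or CEBP-ATF motif, with the matches on either strand in capitals. The AP-1 stretches come from the partner bin with the most contacts among each gene's loops found in all 4 lists, 1 of up to 3 matches per bin. The CEBP-ATF stretches come from bins joined to Ccnd2 and Cdkn1a in all 4 lists. The 1 shown for Cdkn1a overlaps an exon of the noncoding gene Trp53cor1. A further match at Cdkn1a, 25 kb upstream and over no exon, is not shown.
Ccnd1, 175 kb upstream, AP-1, chr7:144665331-144665391: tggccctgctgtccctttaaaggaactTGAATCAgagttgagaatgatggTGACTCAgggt
Ccnd2, 210 kb upstream, AP-1, chr6:127336679-127336739: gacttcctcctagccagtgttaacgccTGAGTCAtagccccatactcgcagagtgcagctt
Ccnd2, 205 kb upstream, CEBP-ATF, chr6:127330464-127330524: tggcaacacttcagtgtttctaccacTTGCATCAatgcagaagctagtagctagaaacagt
Ccnd2, 205 kb upstream, CEBP-ATF, chr6:127334689-127334749: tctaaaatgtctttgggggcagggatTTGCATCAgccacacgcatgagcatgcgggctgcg
Ccnd3, 80 kb upstream, AP-1, chr17:47822169-47822229: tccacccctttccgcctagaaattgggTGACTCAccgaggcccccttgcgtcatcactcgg
Cdkn1a, 10 kb upstream, AP-1, chr17:29301155-29301215: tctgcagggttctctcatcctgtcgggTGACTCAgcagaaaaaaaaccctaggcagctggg
Cdkn1a, 15 kb upstream, CEBP-ATF, chr17:29297975-29298035: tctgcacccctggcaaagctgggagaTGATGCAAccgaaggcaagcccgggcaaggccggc
Cdkn1b, 20 kb upstream, AP-1, chr6:134879173-134879233: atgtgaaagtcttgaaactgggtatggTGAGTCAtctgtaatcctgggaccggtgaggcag
The AP-1 motif was in 74 of the 99 partner bins (74.7%) and in 77.4% of all 64985 bins with an H3K27ac peak in the lists. The CEBP-ATF motif was in 10 partner bins (10.1%) and in 11.6% of the peak bins. Both shares at the partner bins lay close to and below those of the peak bins. A match is a description of the letters and not evidence of a bound factor.

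Ccnd1 (chr7:144483668-144493662, minus strand) encodes cyclin D1. Its start-site bin had 11, 6, 7 and 3 loops in the 4 lists. All 14 of its partner bins lay upstream, between 110 and 310 kb away, and none held the start site of a protein-coding gene. Of these bins, 5 lay over Tpcn2, an ion channel gene, and the other 9 over no coding gene. In none of the lists was any of the 14 bins joined to another coding start-site bin. Loops to 3 bins were in all 4 lists. The bin 175 kb upstream had 21, 16, 28 and 15 contacts, or 14.4, 12.0, 19.97 and 11.5 times the expected number. The bin 170 kb upstream had 16, 17, 11 and 10 contacts. The bin 305 kb upstream, inside Tpcn2 and without an H3K27ac peak in any list, had 24, 16, 11 and 14. The contacts at the bin 305 kb upstream were highest in p30 UT and those at the bin 175 kb upstream in p42 UT. At 175 kb the ratio of p42 UT over p30 UT per modelled contact was 1.26 (0.691 to 2.34), within counting error. A different order of the lists in these regions is therefore not shown. The 2 neighbours of the bin in Tpcn2, at 300 and 310 kb, were joined to Ccnd1 in both p30 lists and in neither p42 list, with 8 to 13 contacts each. Over the 8 genes, 4 of the 99 bin pairs were in both p30 lists and no p42 list, and 5 the other way round. This share was not counted over all genes.

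Ccnd2 (chr6:127102125-127129156, minus strand) encodes cyclin D2, the D cyclin typical of blood cells that respond to cytokines. It had 12, 7, 12 and 7 loops. All 19 partner bins lay upstream, between 15 and 295 kb away, 18 of them over no coding gene. They formed groups at 100 to 125, at 170 to 230 and at 295 kb, the last inside Parp11, besides a bin at 15 kb that was joined in p42 UT alone. Of the 19 loops, 4 were in all 4 lists. The bin 210 kb upstream had 22, 24, 19 and 15 contacts, or 17.95, 20.3, 15.4 and 12.2 times the expected number. The bin 115 kb upstream had 13, 11, 14 and 14 contacts. The bin 205 kb upstream, which holds both CEBP-ATF stretches shown above and no H3K27ac peak in any list, had 11, 15, 9 and 12. Numbers of contacts at this gene were small throughout, with at most 28 for a single loop.

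Ccnd3 (chr17:47815767-47910624, plus strand) encodes cyclin D3. Its canonical start lies near the 3′ side of the annotated gene, and longer transcripts start in the bin 85 kb upstream. It had 9, 12, 15 and 13 loops, and 16 of its 18 partner bins were inside the Ccnd3 gene itself. Loops to 8 bins, 50 to 90 kb upstream, were in all 4 lists. The bin 80 kb upstream had 26, 42, 58 and 38 contacts, and the bin 75 kb upstream had 15, 31, 48 and 36. The bin 70 kb upstream had 27, 32, 53 and 33. At each of these 3 bins p30 UT was the lowest list and p42 UT the highest. The bin 85 kb upstream, with the start of the long transcripts, had 24, 15, 37 and 22 contacts. The bin 90 kb upstream holds the start site of Taf8, a subunit of the general transcription factor TFIID, and had 13, 13, 11 and 12. A loop to the bin 10 kb upstream, with 61, 57 and 58 contacts, was in p30 LPS, p42 UT and p42 LPS and not in p30 UT.

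Cdk4 and Cdk6 encode the kinases that D cyclins activate, and they were the least looped with Cdkn2c. The start-site bin of Cdk4 (chr10:126895180-126903789), which it shares with Marchf9, had no loop in any list. The nearest bin with a loop was 10, 5, 5 and 15 kb away in the 4 lists, and 6 to 10 bins within 50 kb had a loop. A gene without a listed loop has an unknown number of contacts, since pairs that did not pass the caller's threshold are not in the lists. Cdk6 (chr5:3391485-3581008) had 0, 1, 4 and 2 loops, none in p30 UT. All 5 partner bins were inside Cdk6, 4 of them 150 to 165 kb downstream of the start, with 9 to 17 contacts, and 1 at 20 kb with 16 contacts in p42 LPS. The loops of Cdk6 were 4.96 to 9.21 times the expected number in p42 UT.

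Cdkn1a (chr17:29309936-29319701, plus strand) encodes p21, a target of p53, and held the most loops of the 8 genes. It had 27, 28, 29 and 22 loops, and only 13, 23, 76 and 38 genes of all 21751 had more in those lists. Its 37 partner bins lay on both sides, 14 upstream and 23 downstream, and 16 of the loops were in all 4 lists. The bin 10 kb upstream had the most contacts of any loop of the 8 genes, 137, 141, 253 and 143. The bin 15 kb upstream, with the start of the p53-induced noncoding RNA Trp53cor1, had 88, 77, 156 and 88. The bin 45 kb upstream, over no coding gene, had 77, 100, 126 and 73 contacts, 15.9, 25.3, 23.9 and 15.5 times the expected number. In the bins at 10 and 15 kb p42 UT was the highest list. In the bin at 45 kb it was highest in contacts, but p30 LPS was highest over expected contacts.

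Start sites of 2 coding genes were joined to Cdkn1a in all 4 lists. Srsf3, which encodes a splicing factor, starts in the bin 60 kb upstream and had 27, 37, 50 and 29 contacts with Cdkn1a. Rab44, which encodes a large Rab GTPase, starts in the bin 20 kb downstream and had 64, 69, 105 and 67. A second region lay inside Cpne5, a copine gene, where the bins 75 and 80 kb downstream had 47, 62, 60 and 55 and 51, 62, 66 and 42 contacts. The bin 300 kb downstream, the farthest partner of Cdkn1a, had 9, 14 and 9 contacts in p30 UT, p30 LPS and p42 LPS and was not in the p42 UT list, although that list was the longest.

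Cdkn1b (chr6:134897364-134902476, plus strand) encodes p27. It had 1, 2, 5 and 2 loops. The bin 20 kb upstream, inside Gpr19, a receptor gene, had 32, 46, 55 and 34 contacts and was the 1 partner in all 4 lists. The bin 25 kb upstream, with the start site of Gpr19, was joined to Cdkn1b in both p42 lists, with 38 and 22 contacts, and in neither p30 list. It was 1 of 5 such bin pairs of the 8 genes, against 4 in both p30 lists and no p42 list. This share was not counted over all genes, and a pair missing from a list has an unknown number of contacts. Loops to the start sites of Dusp16, 130 kb upstream, and Borcs5, 280 kb upstream, were in p42 UT alone, with 10 and 11 contacts. Cdkn2c (chr4:109517957-109524386, minus strand), the gene of p18, had a single loop in p42 UT, with 58 contacts to the bin 10 kb upstream that holds the start site of Faf1. That loop was 2.17 times the expected number. The p42 UT list was the longest, and 15 of the 34 bin pairs of the 8 genes found in 1 list were in it. Gpr19, Dusp16, Borcs5, Faf1, Tpcn2, Parp11 and Cpne5 are named as the annotation of single bins and were chosen after their values were seen.

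**Figure D1:**
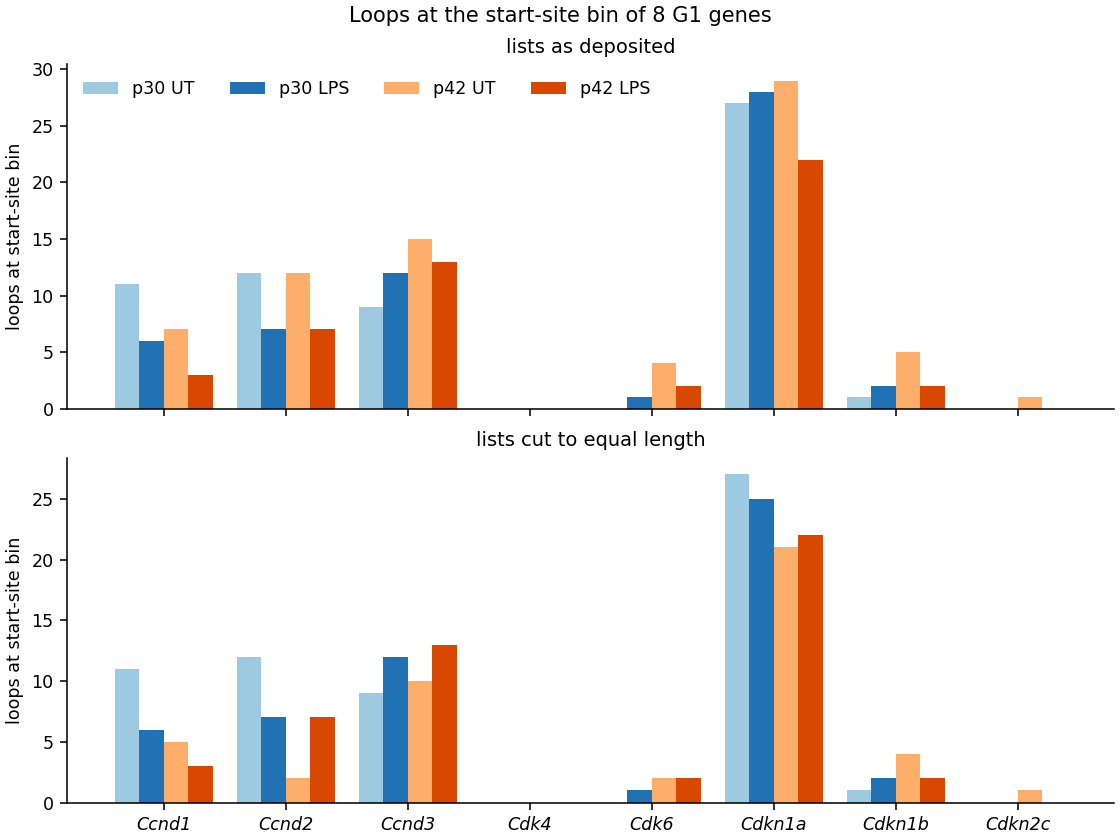
Number of loops (y axis) at the start-site bin of each of the 8 genes (x axis) in the 4 lists, as deposited (top) and limited to equal length (bottom). Cdkn1a has 21 to 29 loops in every list in both panels, Cdk4 has none, and Ccnd2 in p42 UT has 12 loops in the first and 2 in the second.

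Distances differed between the 8 genes. Of the loops of the 8 genes, 46.7%, 33.9%, 39.7% and 30.6% spanned 100 kb or more, against 23.1%, 21.3%, 23.4% and 20.6% of all start-site loops of protein-coding genes. Ccnd1 and Ccnd2 supplied most of these, with no loop under 100 kb except that of Ccnd2 at 15 kb. Without these cyclin genes, the share of such loops lay below that of all genes in every list. Between 100 and 310 kb, the median loop of the 8 genes had 7.75, 8.13, 6.31 and 8.19 times its expected contacts, and the median of all start-site loops 6.42, 6.47, 6.16 and 6.52. The value of the 8 genes was higher in each list and closest to that of all genes in p42 UT. Of the 99 bin pairs, 32 (32.3%) were in all 4 lists and 34 (34.3%) in 1 list, while of 66931 pairs over all genes 17.7% were in all 4 lists and 46.5% in 1. Of the 32 pairs, 16 belonged to Cdkn1a.

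**Figure D2:**
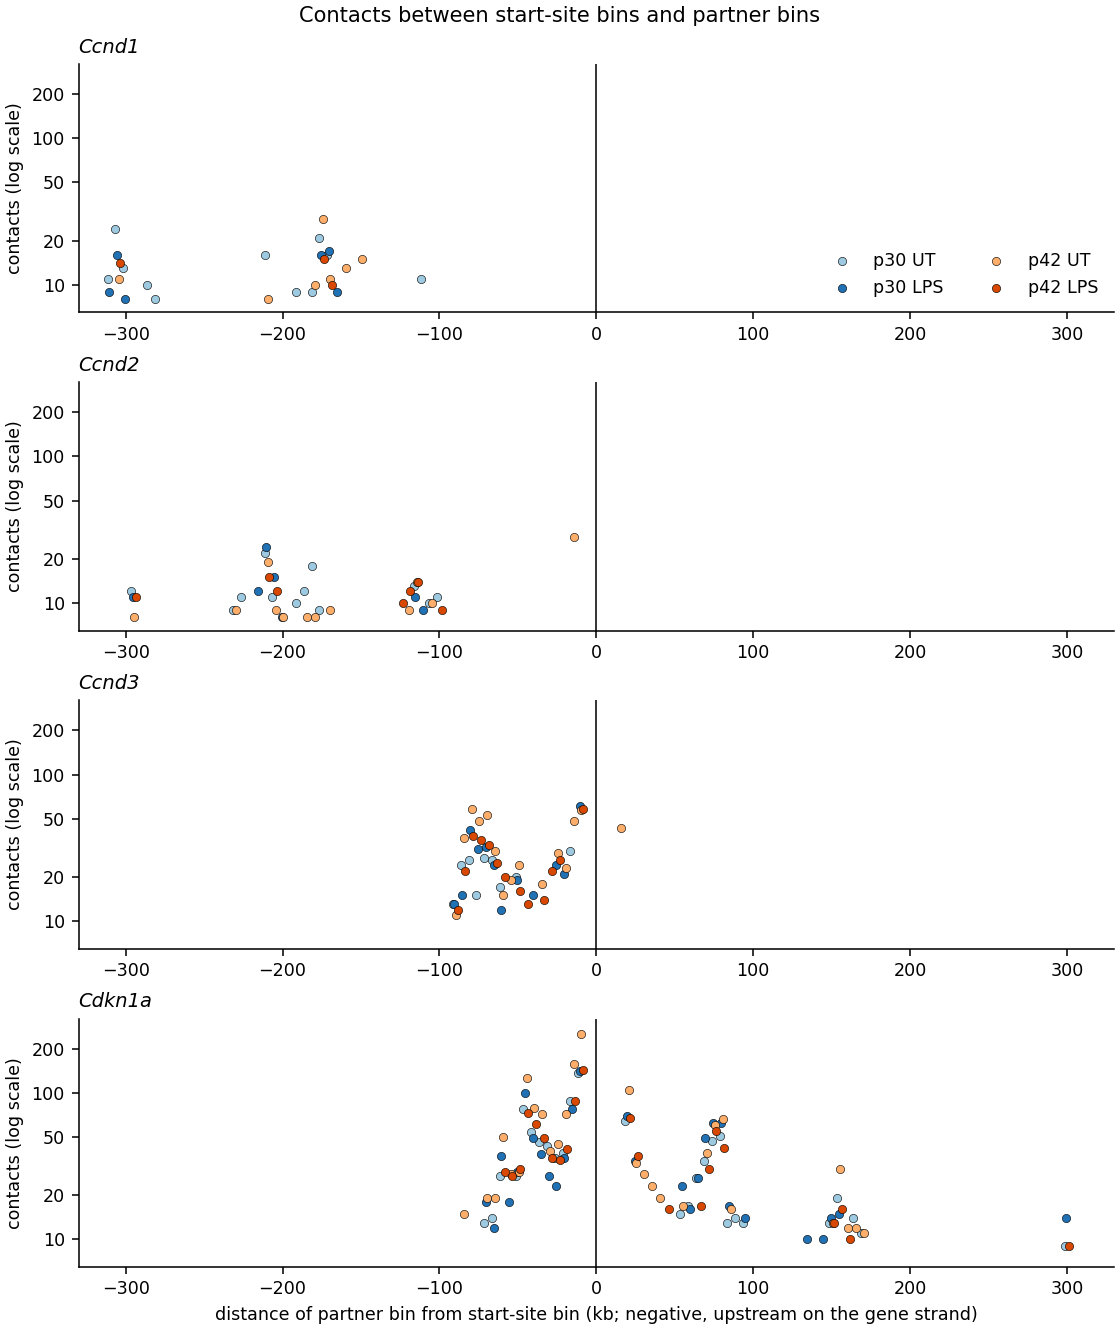
Contacts of each loop (y axis, log scale) against the distance of the partner bin from the start-site bin in kb (x axis, negative values upstream on the strand of the gene) for 4 genes, 1 point per loop and list. Ccnd1 and Ccnd2 have partners on the upstream side alone, with at most 28 contacts, Ccnd3 has them within 90 kb, and Cdkn1a reaches 253 contacts at 10 kb upstream.

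The first comparison was between the isoforms without LPS. In lists of equal length the 8 genes had 45 loops in p42 UT and 60 in p30 UT. This is a ratio of 0.750 (95% interval 0.498 to 1.12), and the interval held the ratio of all genes, 1.06. Ccnd1, Ccnd2 and Cdkn1a (21 against 27) had fewer loops in p42 UT, and the other genes with loops had more. A gene was called different when it had at least 1.5 times and at least 3 loops more in 1 list. Ccnd1 (5 in p42 UT against 11 in p30 UT) and Ccnd2 (2 against 12) were called with fewer loops in p42, a call made for 5.13% of 10513 genes with a start-site loop. Here and below, such shares include genes with under 3 loops in both lists, which cannot be called. Ccnd1 and Ccnd2 had at least as many loops in p30 UT as 94.9% and 96.0% of the 10513 genes. Cdkn1b (4 against 1) was called with more, as were 8.69% of genes. With the lists as deposited Ccnd2 had 12 loops in both, and the sum over the 8 genes had a ratio of 1.22, against 1.91 for all genes, below all genes as in the lists of equal length. The call of Cdkn1b was lost under 3 of 8 alternatives, for example with 3 loops against 1 at 20 kb or more.

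Contacts were compared over loops found in all 4 lists, as contacts per modelled contact. For p42 UT over p30 UT the median of 5039 genes with such loops was 0.34 on the log2 scale, with quartiles of 0.11 and 0.54, so that single genes are read against that shift. Ccnd3 had 276 contacts in p42 UT and 168 in p30 UT, a ratio of 1.55 (1.28 to 1.89). Cdkn1a had 1233 and 802, a ratio of 1.45 (1.33 to 1.59), with 14 of its 16 loops above 1. Cdkn1b had 55 and 32 at its 1 loop, a ratio of 1.63 (1.03 to 2.60). Ccnd1 had 50 and 61 contacts, a ratio of 0.776 (0.523 to 1.15), and Ccnd2 50 and 58, a ratio of 0.816 (0.547 to 1.21). The ratios of the long-range cyclin genes Ccnd1 and Ccnd2 were thus below 1, with intervals that held 1. Those of Ccnd3 and both Cip/Kip genes were above 1, as was the median of all genes. Cdkn1a, at 0.54 on the log2 scale, lay just within the quartiles of all genes.

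Relative to the contacts of all 31032 loops in all 4 lists, the log2 ratio of p42 UT over p30 UT was -0.72 (-1.29 to -0.16) for Ccnd1 and -0.65 (-1.23 to -0.08) for Ccnd2. On the same scale it was 0.28 (-0.00299 to 0.56) for Ccnd3, 0.18 (0.05 to 0.31) for Cdkn1a and 0.34 (-0.31 to 1.02) for Cdkn1b. The interval of Cdkn1a lay above 0 and the intervals of Ccnd1 and Ccnd2 lay below 0. Among single loops, the Ccnd1 bin 305 kb upstream had a ratio of 0.434 (0.192 to 0.920) per modelled contact. The Ccnd3 bins 75 and 80 kb upstream had 3.03 (1.67 to 5.82) and 2.11 (1.31 to 3.49). Over the 5039 genes, 3.75% had a lower ratio per modelled contact than Ccnd1 and 5.16% a lower one than Ccnd2, both of which rest on few contacts.

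The same comparison was then made with LPS. The 8 genes had 49 loops in p42 LPS and 53 in p30 LPS, a ratio of 0.925 (0.614 to 1.39), and all genes had 0.906. Ccnd1 (3 in p42 LPS against 6 in p30 LPS) was called with fewer loops, as were 9.19% of genes. None of the 7 genes with loops was called with more, against 5.17%. At a minimum of 10 contacts a loop Ccnd1 had 3 loops in both. In contacts, the median of all genes was -0.25 on the log2 scale. Cdkn1a had 808 contacts in p42 LPS and 828 in p30 LPS, a ratio of 0.894 (0.810 to 0.986), and Ccnd3 had 202 and 188, a ratio of 0.984 (0.803 to 1.21). Ccnd1 had a ratio of 0.729 (0.466 to 1.13), Ccnd2 of 0.781 (0.529 to 1.15) and Cdkn1b of 0.677 (0.421 to 1.08). Relative to all shared loops, Cdkn1a turned to 0.05 (-0.09 to 0.19) on the log2 scale, and the intervals of all 5 genes held 0.

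LPS was then compared with UT within each isoform, 2 comparisons that share no list with each other. In p30 the 8 genes had 53 loops after LPS and 60 before, a ratio of 0.883 (0.599 to 1.30). The interval held the ratio of all genes, 1.06. Ccnd1 (6 against 11) and Ccnd2 (7 against 12) were called with fewer loops after LPS, as were 5.41% of genes. None of the 8 genes was called with more, against 7.19%. Contacts at shared loops had a median of 0.28 on the log2 scale over all genes. The ratio of p30 LPS over p30 UT was 1.39 (1.12 to 1.72) for Ccnd3, 1.28 (1.16 to 1.41) for Cdkn1a and 1.78 (1.11 to 2.89) for Cdkn1b. It was 0.996 (0.669 to 1.47) for Ccnd1 and 1.30 (0.895 to 1.90) for Ccnd2. Relative to all shared loops the intervals of all 5 genes held 0, and Cdkn1a had a log2 value of 0.07.

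In p42 the 8 genes had 49 loops after LPS and 45 before, a ratio of 1.09 (0.712 to 1.67), with 0.902 for all genes. With the lists as deposited the ratio was 0.671 (0.458 to 0.977), and that of all genes was 0.491. The 8 genes lay above all genes both ways, but each interval held the ratio of all genes. Ccnd2 was called with more loops after LPS (7 against 2), as were 3.23% of genes, and none of the 8 with fewer, against 7.71%. With the lists as deposited Ccnd2 had 7 against 12, the opposite direction. Contacts at shared loops had a median of -0.31 on the log2 scale over all genes. Cdkn1a had a ratio of 0.786 (0.719 to 0.860), Ccnd3 of 0.878 (0.729 to 1.06) and Cdkn1b of 0.742 (0.469 to 1.16). Ccnd1 had 0.936 (0.600 to 1.45) and Ccnd2 had 52 contacts after LPS and 50 before, a log2 ratio of 0.32, and relative to all shared loops a log2 value of 0.60 (0.0074 to 1.19). On that scale the intervals of the other 4 genes held 0.

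**Figure D3:**
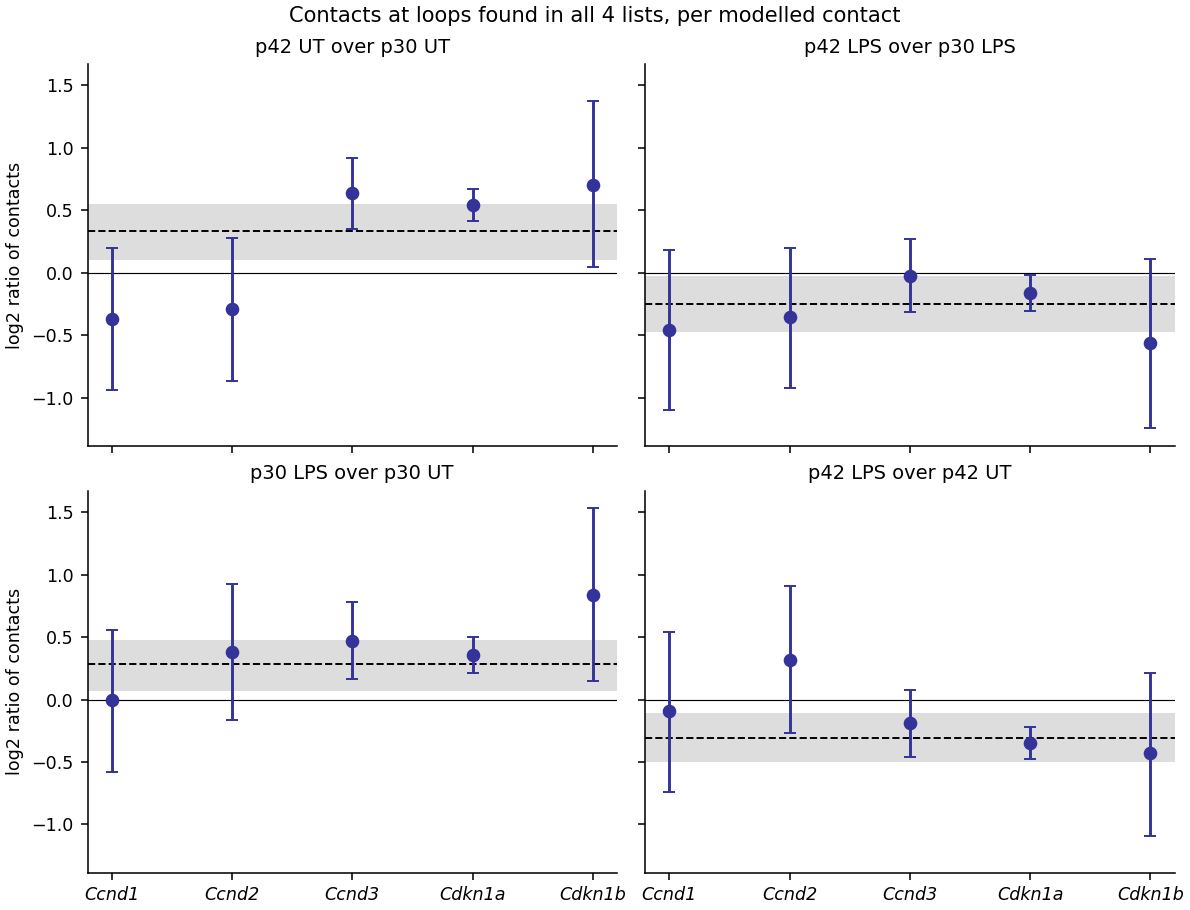
Log2 ratio of contacts per modelled contact (y axis) at loops found in all 4 lists, for 5 genes (x axis) and 4 comparisons, with 95% exact intervals for counting error. The dashed line is the median of 5039 genes and the grey band their quartiles. Cdkn1a lies at 0.54, -0.16, 0.36 and -0.35, inside the band each time, and Ccnd1 and Ccnd2 lie below the band for p42 UT over p30 UT.

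Coverage of the start-site bin is a measure of H3K27ac signal at the promoter, given by the caller relative to the mean of its class of bins. Cdkn1a had 3.26, 3.54, 4.13 and 3.79 times that mean, higher than 91.1% to 96.6% of start-site bins. Cdkn1b had 1.66, 1.62, 2.22 and 1.65, and Ccnd3 had 1.54, 1.60, 1.54 and 1.60. Ccnd2 had 0.742, 0.719, 0.827 and 0.927. Ccnd1 had 0.715, 0.554, 0.517 and 0.536, the lowest of the genes with a value in each list. The order of the genes was thus Cdkn1a first, then Cdkn1b and Ccnd3, then Ccnd2 and Cdk6, then Ccnd1, except that in p42 UT Cdk6 (0.956) lay above Ccnd2 and Cdkn2c (0.790) just below it. Neighbours in that order have no spread to be told apart by. The value of Ccnd3 stayed between 1.54 and 1.60, while its contacts at shared loops were 168, 188, 276 and 202.

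A start-site bin was called different in coverage at a ratio of at least 5 to 4. For p42 UT over p30 UT, 17.8% of 7705 bins were called higher, with Cdkn1a (1.27-fold) and Cdkn1b (1.34-fold) among them, and 7.71% lower, with Ccnd1 (0.723-fold). For p42 LPS over p30 LPS, 5.76% were called higher, with Ccnd2 (1.29-fold), and 21.6% lower, with none of the 8 genes. For p30 LPS over p30 UT, 13.4% were called higher, with none of the 8, and 4.5% lower, with Ccnd1 (0.775-fold). For p42 LPS over p42 UT, 2.61% were called higher, with none of the 8, and 15.9% lower, with Cdk6 (0.705-fold) and Cdkn1b (0.744-fold). The higher coverage of Cdkn1b in p42 UT than in p30 UT and the lower one of Cdk6 in p42 LPS than in p42 UT passed under all 3 alternatives tried. Each of the other 5 calls was lost under at least 1 of them. Per modelled contact, Ccnd2 had a log2 ratio of 0.0330 for p42 LPS over p30 LPS, and Ccnd1 of -0.27 for p42 UT over p30 UT and -0.16 for p30 LPS over p30 UT. With the neighbouring bins, Cdkn1a had 0.21 for p42 UT over p30 UT and Cdkn1b -0.31 for p42 LPS over p42 UT. For p42 LPS over p30 LPS, Ccnd1 (-0.38), Cdk6 (-0.36) and Ccnd3 (-0.34) passed as lower per modelled contact. On that scale Ccnd2 also passed as higher for p42 UT over p30 UT. Cdkn1a passed as lower for p42 LPS over p42 UT and only just as higher for p30 LPS over p30 UT. Relative to the class mean, Ccnd1 was called lower in p42 UT and in p30 LPS, both against p30 UT, where it also had fewer loops. It was not called in p42 LPS against p30 LPS, where it had fewer loops and a coverage ratio of 0.968. Per modelled contact this pattern turned round, and of these comparisons Ccnd1 passed as lower only in p42 LPS against p30 LPS. Ccnd2 had fewer loops in p42 UT and in p30 LPS, both against p30 UT, without a call in coverage relative to the class mean. Per modelled contact its coverage passed as higher in p42 UT, opposite to its loops. Coverage bears on which pairs pass the caller's threshold, and its part in the numbers of loops was not tested.

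**Figure D4:**
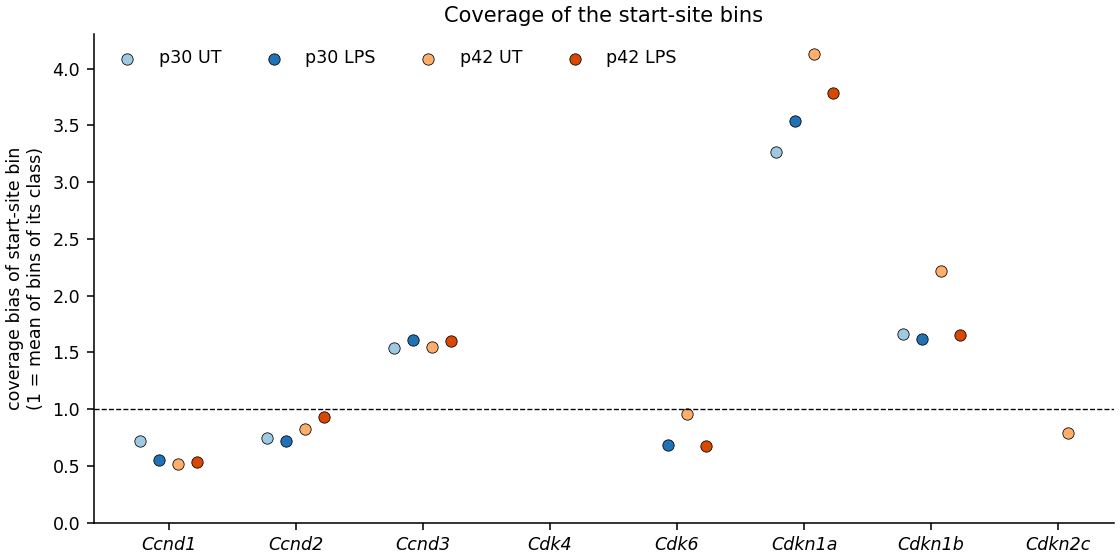
Coverage of the start-site bin relative to the mean of its class of bins (y axis, 1 marked by the dashed line) for the 8 genes (x axis), 1 point per list. Cdkn1a lies at 3.26 to 4.13 and Ccnd1 at 0.517 to 0.715. Points are missing for Cdk4 in every list, for Cdk6 in p30 UT and for Cdkn2c in all but p42 UT, where no loop was listed.

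Of 44 other genes of the passage from G1 to S phase, 32 had a start-site loop in at least 1 list. For p42 over p30 without LPS 2 of them were called with more loops and none with fewer, beside 8.69% and 5.13% of all genes with loops. With LPS 3 were called with more and 3 with fewer, beside 5.17% and 9.19%. For LPS over UT 3 were called with more and 2 with fewer in p30, beside 7.19% and 5.41%, and 2 with more and 2 with fewer in p42, beside 3.23% and 7.71%. Such counts out of 32 lie near the shares over all genes. Among the other inhibitors, Cdkn2d, the p19 gene of the INK4 family, was the 1 of 4 with loops, 12, 18, 15 and 9 in the lists as deposited. Cdkn2a and Cdkn2b had none. The cyclin E genes Ccne1 and Ccne2 had 0 to 3 loops per list and their kinase Cdk2 had 3 to 7. These genes and Trp53 were chosen for naming after their values were seen.

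Few of these genes differed the same way in both comparisons of a kind, by numbers in lists of equal length. The share of all genes that did so was not counted. Tfdp1, the partner of E2F factors, had 0, 0, 4 and 3 loops, more in p42 under both treatments. Rb1, the target of the cyclin D kinases, had 2, 8, 2 and 8 loops, more after LPS in both isoforms, as had Cdc6, which loads the replicative helicase, with 2, 8, 4 and 7. In p42 both directions turn with the lists as deposited, where Rb1 had 8 loops after LPS and 13 before, and Cdc6 had 7 and 9. Mcm5, a subunit of that helicase, had 8, 4, 8 and 2, fewer after LPS in both. Trp53, the activator of Cdkn1a, had 14, 15, 13 and 9 and was called with fewer loops in p42 LPS than in p30 LPS.

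Likeness was measured as the distance between log2 numbers of loops plus 1 over the 4 lists of equal length, with ties settled by start-site coverage, among genes on other chromosomes or over 2000 kb away. The gene most like Ccnd1 was Grifin, with 9, 6, 5 and 3 loops. The gene most like Ccnd2 was Fgd2, with 9, 8, 3 and 7. The gene most like Ccnd3 was Arf6, with 10, 12, 10 and 12, and the one most like Cdkn1a was Ankrd11, with 23, 24, 23 and 23. Phyh had the same numbers as Cdk6, as had 18 genes in all, and Xiap the same as Cdkn1b, as had 4. Cdkn2c, with 1 loop, shared its numbers with 219 genes, Gm26920 being nearest in coverage. With 4 lists, such likeness is a description of numbers alone.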

How the data were processed

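The authors mapped reads to mm39 (the assembly GRCm39) with BWA-MEM 0.7.17, removed duplicates with pairtools and called interactions with FitHiChIP in 5 kb bins at a q-value under 0.01. They deposited 1 list per group, pooled from 2 libraries in a way that was not stated. Deposited contact counts are whole numbers without normalization. The deposited expected contacts are a signal modelled from distance and coverage, and the deposited contact probability is a fraction. Coverage per bin and its ratio to the class mean were deposited too. The caller corrects for coverage, which can take out part of a difference in H3K27ac, and omits pairs that miss its threshold. No q-value was recomputed. No value column of another series was used.

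Modelled contacts are the median of expected contacts over probability. Python 3.11.15, pandas 2.3.3 and scipy 1.17.1 were used. Counting, calls and intervals were tested on simulated data. Lists of equal length held 78591 loops. Ratios have 95% exact binomial intervals, which cover counting error only, as reads are not independent molecules. For numbers of loops they treat loops as independent, although many join adjacent partner bins of 1 gene, and so can be too narrow. With runs of adjacent partner bins counted as 1 loop, p42 UT over p30 UT was 20 against 23, a ratio of 0.870 (0.453 to 1.66). No model across genes was fitted, since each group has 1 list. Genes came from GENCODE M39 and sequences from GRCm39, which holds all 21 chromosome names of the lists, with 0 loop ends beyond a chromosome end. Genes named are the 8, coding genes that start in a partner bin in at least 3 lists, genes of the list of 44 called the same way in both comparisons of a kind, the most alike gene, and others as said. Members, lists and rules were chosen with earlier results of these data known. Promoter sequences of genes other than Cdkn1a and Ccnd2 are not reported here.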

Additional observations from a re-analysis of the deposited data

Results flagged for a closer look

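Contacts of Cdkn1a over its 16 loops in all 4 lists differed between groups in opposite directions. The ratio of p42 over p30 was 1.45 (95% interval 1.33 to 1.59) without LPS and 0.894 (0.810 to 0.986) with LPS. The ratio of LPS over UT was 1.28 (1.16 to 1.41) in p30 and 0.786 (0.719 to 0.860) in p42. The median of all genes moved the same way in each, by 0.34, -0.25, 0.28 and -0.31 on the log2 scale. Cdkn1a lay within the quartiles of all genes each time. Both pairs of ratios come from the same 4 sums of contacts and are not independent. The difference between the groups was not tested, as each group has 1 list.

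The number of Ccnd2 loops in lists of equal length moved by -5 with LPS in p30 and by 5 in p42, which was not tested either. With the lists as deposited it moved by -5 in both.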

How the results depend on the processing

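No paired analysis was possible because the 2 replicates of each group were pooled in 1 list, and no replicate could be left out for the same reason. Of 60 alternative values for the sums and medians over the genes, 45 stayed within the counting error of the reported value and 15 moved outside it. For the loops, p42 UT over p30 UT moved from 0.750 to 1.22 with the lists as deposited, 1.17 at a q-value under 0.001 and 1.13 at 1e-05, and p42 LPS over p42 UT from 1.09 to 0.671 with the lists as deposited. With the lists as deposited the ratio of all genes moved alike, from 1.06 to 1.91 and from 0.902 to 0.491. The median log2 contacts for p42 UT over p30 UT moved from 0.54 to 0.35 over expected contacts and 0.18 per total contacts of all shared loops, and for p42 LPS over p42 UT from -0.19 to 0.0888 per total contacts. The median log2 coverage for p42 UT over p30 UT moved from 0.16 to 0.35 per modelled contact, 0.0628 over the median start-site bin and 0.0162 with the neighbouring bins. Per modelled contact it moved from 0.01 to -0.32 for p42 LPS over p30 LPS, from -0.03 to 0.17 for p30 LPS over p30 UT and from -0.04 to -0.36 for p42 LPS over p42 UT. Over the median start-site bin it was 0.11 for both p42 LPS over p30 LPS and p42 LPS over p42 UT. The cause was not tested. For single genes, 273 values were scored as staying, 79 as moved and 2 as reversed. The reversed ones were Ccnd2 loops for p42 LPS over p42 UT with the lists as deposited (-5) and Cdkn1a contacts for p42 LPS over p30 LPS per total contacts of all shared loops (0.0468 on the log2 scale). Only values called, or with an interval without 0, in the main setting could be scored as reversed. For loops, staying meant an unchanged call, so the direction could turn at genes not called. Cdkn1a loops for p42 UT over p30 UT differed by -6 in lists of equal length and by 2 with the lists as deposited. Ccnd3 loops for p42 LPS over p42 UT differed by 3 and by -2. The fewer loops of Ccnd1 and Ccnd2 in p42 UT than in p30 UT kept their call under 5 and 6 of 8 alternatives, and the more loops of Cdkn1b under 5. Loops of Ccnd1 and Ccnd2 rest on 8 to 28 contacts each, which limits both.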
